A study of Mus musculus with 44 samples.

Results

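Acta2, Cald1, Cfl2, Wwtr1 and Thbs1 are 5 genes of the contractile actin cytoskeleton and of signalling through the coactivator TAZ. They were taken by name from a table of 3613 genes in 44 single mouse cells, and all 5 were listed. The study compared osteomacs, the macrophages of bone surfaces, from C57BL/6J neonatal calvarial cells cultured for 16 h with 50000 megakaryocytes (20 cells, all from plate 7) or without megakaryocytes (24 cells, all from plate 3). All cells were sorted as CD45-positive, F4/80-positive and CD41-negative, captured on a Fluidigm C1 chip and sequenced as SMART-Seq libraries. They are called with-MK and without-MK cells below, and cells are numbered as in their titles. The titles of the without-MK cells also name megakaryocytes, against their treatment field. No label names an animal or a culture, so each group counts as 1 sample. Plate, capture and treatment cannot be told apart, and no test between the groups was made.

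Acta2 encodes smooth muscle alpha-actin, the actin of stress fibres in contractile fibroblasts and vascular smooth muscle. Cald1 encodes caldesmon, which binds actin, tropomyosin and myosin and restrains their interaction. Cfl2 encodes the muscle-type cofilin, which severs and depolymerises actin filaments. Wwtr1 encodes TAZ, a transcriptional coactivator of the Hippo pathway that binds TEAD factors on DNA and is held in the cytoplasm when LATS kinases phosphorylate it. Tension on the actin cytoskeleton is known to favour nuclear TAZ. Thbs1 encodes thrombospondin-1, a secreted matrix glycoprotein that activates latent TGF-beta and is a commonly used target gene of YAP and TAZ. Serum response factor binds CArG boxes in promoters of contractile genes. An mRNA level of Wwtr1 reports neither the phosphorylation nor the location of the TAZ protein.

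The sites below are shown because they are the elements through which TEAD factors and serum response factor are known to act, in windows of the genes whose levels are compared. They come from RefSeq windows of the 250 bases before each annotated gene start (GRCm38.p6), which could be matched for 4 of the 5 genes, Thbs1 not being among them. Both strands were searched for GGAATG, the core of the TEAD site, and for the CArG box with at most 1 G or C in its A/T core. Capitals mark the match. Each line is 30 bases, 5′ to 3′ on the strand of the gene.
Acta2, GGAATG, chr19:34255502-34255531, minus strand: gagcagaacagaGGAATGcagtggaagaga
Acta2, CArG box, chr19:34255438-34255467, minus strand: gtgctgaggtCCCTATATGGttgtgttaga
Acta2, CArG box, chr19:34255388-34255417, minus strand: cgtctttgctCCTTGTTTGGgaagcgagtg
Cald1, GGAATG, chr6:34598339-34598368, plus strand: gagcatgcctagGGAATGacaggcatctgc
Wwtr1, GGAATG, chr3:57576029-57576058, minus strand: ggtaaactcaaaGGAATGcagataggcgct

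The Acta2 matches begin 146, 84 and 34 bases before the annotated start, and neither of its CArG boxes has a core of A and T alone. In GENCODE M21 these positions lie within the first exon of Acta2, in its UTR, since that transcript starts farther upstream. Cald1 had its match 153 bases before the start of the first of its 2 windows, and the Wwtr1 match stood in both of its windows. GGAATG stood in 12.6% of the 32851 windows of all genes, the CArG box in this relaxed form in 8.59%, and both together in 1.18%. The window of Cfl2 held neither sequence, which says only that these letters are not in that window. These matches describe the sequence and are no evidence of binding.

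The deposited values were turned back into whole reads, and CPM below means those reads divided by the library reads of a cell and scaled to counts per 1e+06. Library reads per cell ranged from 69181 to 1212604 in with-MK cells and from 270537 to 714465 in without-MK cells. The 2 groups did not hold the same kind of cell by their markers, although both were sorted alike. The 21 listed genes of a 24-gene macrophage list summed to 4149 to 64908 CPM in with-MK cells and to 0 to 176 CPM in without-MK cells, in which 6 of the 21 had no read. Ptprc, which encodes CD45, had 8206 reads over the with-MK cells, against a single read over the without-MK cells. The 5 listed genes of a 20-gene osteoblast and fibroblast list, among them Sparc and Col1a2, summed to 3.88 to 154 CPM and to 924 to 89671 CPM. By the difference in mean log2(CPM + 1), Cd53, Lyz2 and Tyrobp stood first in the macrophage list, with 48380, 123772 and 27557 reads over the with-MK cells, against 5, 25 and 3 over the without-MK cells. Sparc, Col1a2 and Postn did so in the stromal list, with 56, 38 and 8 reads, against 75589, 49254 and 9573. So the groups differ in macrophage and stromal transcripts wherever they are compared below, and the part of the megakaryocytes in any difference was not tested. Smooth muscle, pericyte, endothelial and mitosis markers were not analysed here.

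All 5 genes were lower in with-MK cells by at least 2-fold in pooled level, which also held for 28.3% of the 3271 genes read in at least 10 of the 44 cells. At 4-fold the background was 13.4%, and Thbs1 was the member nearest to that line. The other 4 genes were all but absent from with-MK cells, with at most 9 reads of any of them over the 20 cells. Since the genes were chosen with earlier results of these cells known, the count of 5 out of 5 is a description. Cald1 and Wwtr1 had ranges that did not overlap between the groups, with every with-MK cell below every without-MK cell, as did 0.214% of the genes.

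Acta2 (chromosome 19, 34241090 to 34255590, minus strand) was detected in 2 of 20 with-MK cells (10.0%, exact Clopper-Pearson 95% interval 1.23 to 31.7%), against 20 of 24 without-MK cells (83.3%, interval 62.6 to 95.3%). With-MK cells held 2 Acta2 reads in all, in cells 7 and 19. Without-MK cells ranged from 0 through a median of 273 to 2884 CPM. Its pooled level was 0.128 CPM in with-MK cells and 671 CPM in without-MK cells, 5246-fold lower in with-MK cells (exact binomial 95% interval 1452 to 43329, counting error only). Without with-MK cell 7, which held 1 of the 2 reads, the log2 ratio was −13.27, against −12.36 with it. The groups overlap at 0, because 4 without-MK cells had no read of it either. The same with-MK cells held 1242289 reads of Actb, the cytoplasmic actin, beside those 2 reads. None of the 1986 windows of 50 b in the Acta2 transcript occurs in Actb, Acta1, Actc1 or Actg2, and 7 occur in Actg1. The cells differ more in Acta2 than in any other of the 5 genes, as described further on.

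Cald1 (chromosome 6, 34598500 to 34775473, plus strand) gave 9 reads over 7 of the 20 with-MK cells, never more than 2 in a cell, against 15992 reads over all 24 without-MK cells. With-MK cells ranged from 0 to 14.5 CPM with a median of 0, and the highest value is 1 read of cell 11, the shallowest library. Without-MK cells ranged from 74.2 through a median of 1246 to 2910 CPM. Every without-MK cell thus stood above every with-MK cell, and with-MK cells had a pooled level 2238-fold lower (interval 1179 to 4896). On the opposite strand 3 annotated genes overlap Cald1, and whether the counting used strand is not given in the sources used here.

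Cfl2 occupies 54858809 to 54862877 of chromosome 12 (minus strand). A single with-MK cell, cell 18, had a read of it (1.97 CPM), while all 24 without-MK cells had reads, from 1.62 through a median of 346 to 928 CPM. The groups overlap only through without-MK cell 13, which had 1 read. The pooled level was 6131-fold lower in with-MK cells, with a counting interval of 1100 to 242201. Its only with-MK read is that of cell 18, and without that cell the log2 ratio, then set by the floor of 3 reads, was −10.95, against −12.58. The non-muscle cofilin Cfl1 stood at 658 CPM in with-MK cells and 456 CPM in without-MK cells, and no window of 50 b is shared between the transcripts of the 2 cofilins. Cfl2 overlaps 1 gene on the opposite strand.

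Wwtr1, at 57455649 to 57575910 of chromosome 3 (minus strand), overlaps 1 pseudogene on the opposite strand. No with-MK cell had a read of it, and 0 of 20 cells allows a share of up to 15.0% by the limit of 3 counts, or 16.8% by the exact Clopper-Pearson interval. All 24 without-MK cells had reads, from 4.30 through a median of 173 to 664 CPM. The pooled level was at least 1268-fold lower in with-MK cells, against a floor of 3 reads over that group, and stood at 243 CPM in without-MK cells. The exact binomial 95% bound, which is wider, was 1030-fold. TAZ transcripts were thus read in each without-MK cell and were not detectable at this depth in with-MK cells.

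Thbs1, the ligand among the 5, was the only one read in every cell of both groups. Its gene, at 118111876 to 118127133 of chromosome 2 (plus strand), overlaps 1 noncoding gene on the opposite strand. With-MK cells ranged from 1.23 through a median of 221 to 6127 CPM, and without-MK cells from 54.8 through a median of 3636 to 19197 CPM. The ranges overlap widely: 12 of 20 with-MK cells stood above the lowest without-MK cell, and 1 stood above the without-MK median. The pooled level was 719 CPM in with-MK cells and 5264 CPM in without-MK cells, 7.32-fold lower (7.18 to 7.47).

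Within the with-MK cells, Thbs1 was spread more widely than in the without-MK cells. The SD of log2(CPM + 1) was 3.61 over 20 with-MK cells and 2.01 over 24 without-MK cells. With-MK cell 15 alone held 32.9% of the group's Thbs1 reads, 6 cells held 90.2%, and 6 other cells had fewer than 10 reads each. Thbs1 reads were also set beside those of Cald1 and Sparc, of which with-MK cells held only 9 and 56. With-MK cells gave 1249 Thbs1 reads per Cald1 read, against 4.09 for without-MK cells. Per Sparc read, with-MK cells gave 201 Thbs1 reads, against 0.865 for without-MK cells. Over the 20 with-MK cells, the Spearman correlation of Thbs1 with the platelet factor gene Pf4, the single listed gene of a 16-gene megakaryocyte list, was 0.00. With the summed macrophage markers it was 0.26, and with library reads 0.13. These values describe cells of 1 plate and carry no p-value. Pf4 is 1 gene and cannot by itself stand for megakaryocyte RNA, and the source of the Thbs1 reads was not tested.

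**Figure D1:**
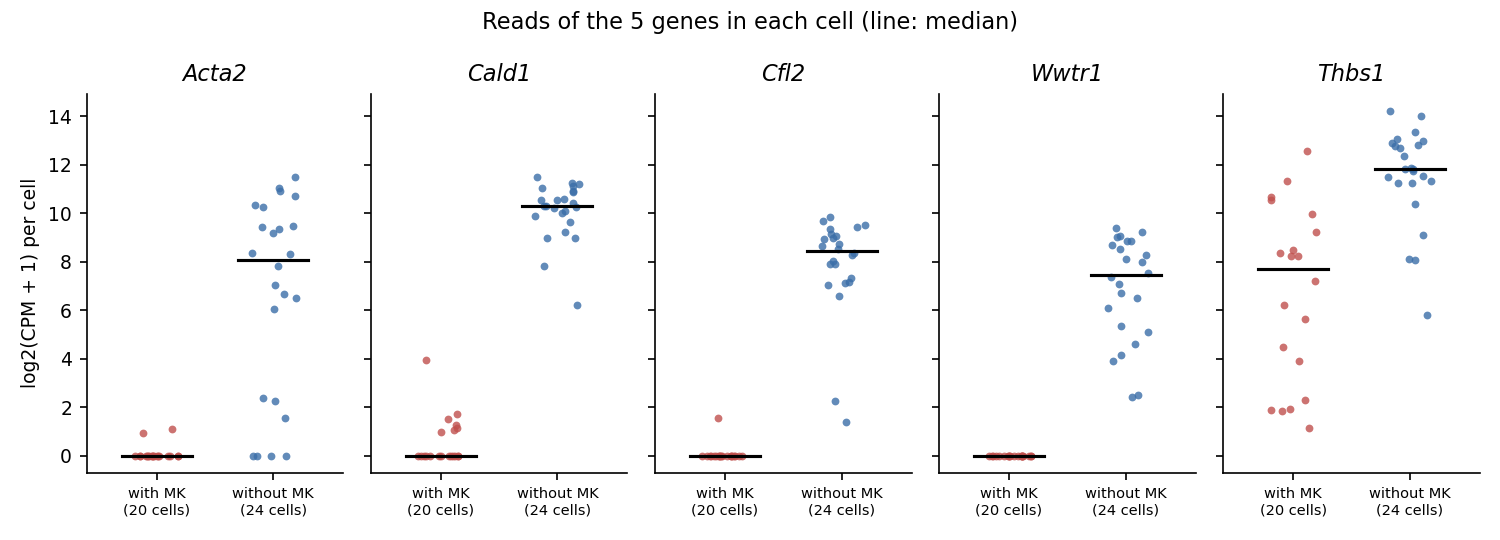
Each point is 1 cell, in log2(CPM + 1), for the 20 with-MK cells (red, left) and the 24 without-MK cells (blue, right), and the lines are medians. Wwtr1 is at 0 in all 20 with-MK cells, Thbs1 is read in all 44 cells, and the without-MK cells spread from 0 to 2884 CPM in Acta2.

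The 24 without-MK cells differed least in Cald1 and most in Acta2. The SD of log2(CPM + 1) was 1.19 for Cald1, 2.01 for Thbs1, 2.08 for Cfl2, 2.16 for Wwtr1 and 4.08 for Acta2. Among the 2624 genes read in at least 12 of these cells, the median SD was 2.39, and 99.8% of them had a lower SD than Acta2. Cald1 stood at the other side, with 16.8% of genes below it. Measured as the coefficient of variation of CPM, Acta2 was less extreme: it reached 130%, above 65.1% of the genes, against 54.2% for Cald1. The wide SD of Acta2 on the log scale comes with 7 cells that had fewer than 10 reads, 4 of them none. The 6 cells with the most Acta2 reads held 76.9% of the total, and the 6 with the most Cald1 reads 44.1% of theirs.

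Single without-MK cells, each the highest or lowest of the group in at least 1 gene, show that the genes need not share 1 order. Cell 15 had 2108 CPM of Acta2, 2240 CPM of Cald1 and 19197 CPM of Thbs1, the highest Thbs1 level of the group, but 39.2 CPM of Wwtr1. Cell 1 had the highest Wwtr1 level, 664 CPM, with 1.89 CPM of Acta2 and 1953 CPM of Cald1. Cell 21 had the lowest Wwtr1 level, 4.30 CPM, with 1946 CPM of Acta2. Cell 14 had the lowest Cald1 level, 74.2 CPM, no Acta2 read and 525 CPM of Wwtr1. A high level of TAZ mRNA thus stood beside low Acta2 in some cells, and a low one beside high Acta2 in others. Other cells were alike in both genes. Cell 13 had 643 CPM of Acta2 and 456 CPM of Wwtr1, and cell 19 had no Acta2 read and 4.57 CPM of Wwtr1.

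Acta2 and Cald1 went with Thbs1 and not with Wwtr1 over the without-MK cells. The Spearman correlation of CPM over the 24 cells was 0.57 between Acta2 and Thbs1 and 0.45 between Cald1 and Thbs1. It was −0.13 between Acta2 and Wwtr1, −0.17 between Cald1 and Wwtr1 and −0.02 between Wwtr1 and Thbs1. All these cells share a plate and a range of depths, and no p-value is given. Of the 10 pairs among the 5 genes, the 2 with Thbs1 were the ones that reached 0.4. Acta2 and Cald1 themselves stood at 0.36, and Cfl2 lay between −0.09 and 0.20 with the other 4.

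These values can be set against all genes read in at least 12 of the 24 cells. Of the other 2623 genes, 11 (0.419%) correlated with Thbs1 at least as highly as Acta2 did, and 69 (2.63%) as highly as Cald1. A value of 0.4 or more with Thbs1 was reached by 2 of the 4 other members and by 5.41% of genes. With Acta2 it was reached by 1 of 4 members and 5.18% of genes, with Cald1 by 1 of 4 and 2.25%, with Cfl2 by 0 of 4 and 3.01%, and with Wwtr1 by 0 of 4 and 4.19%. Of the same genes, 80.1% correlated with Wwtr1 at least as highly as Acta2 did, and 85.0% as highly as Cald1.

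Leaving out each without-MK cell in turn kept the correlation of Acta2 and Thbs1 between 0.52 and 0.63 and that of Cald1 and Thbs1 between 0.39 and 0.50. The value of 0.39, just under 0.4, was that without cell 20, and Cald1 and Thbs1 stood at 0.38 with median-ratio scaling, at 0.37 as Pearson's correlation of log2 levels and at 0.34 without the 2 cells farthest from the Cald1 median. Acta2 and Cald1 reached 0.45 with cells thinned to 310000 reads and 0.52 as Pearson's correlation. Acta2 and Wwtr1 stood at 0.040 and Wwtr1 and Thbs1 at 0.11 as Pearson's correlation, so their sign is not settled. The number of listed genes read per cell correlated with Acta2, Wwtr1 and Thbs1 at 0.33 each and with Cald1 at −0.02. The summed stromal markers correlated with Acta2 at 0.30 and with Thbs1 at 0.29, and Cald1 correlated with the summed macrophage markers at −0.43 and with library reads at −0.32. Given the number of genes read, the partial correlation was 0.52 for Acta2 and Thbs1, 0.48 for Cald1 and Thbs1 and −0.27 for Acta2 and Wwtr1. Given library reads, these were 0.59, 0.45 and −0.13. The part of the marker sums was not tested. The Acta2 values rest partly on cells with few or no Acta2 reads. Over the 17 cells with at least 10 reads of both genes, Acta2 correlated with Thbs1 at 0.35 and with Cald1 at 0.042. Over the 15 such cells for Acta2 and Wwtr1 the value was −0.43, and over the 19 for Wwtr1 and Thbs1 it was −0.39. The correlation of Cald1 and Thbs1, with at least 10 reads of both in all 24 cells, is not touched by this limit.

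**Figure D2:**
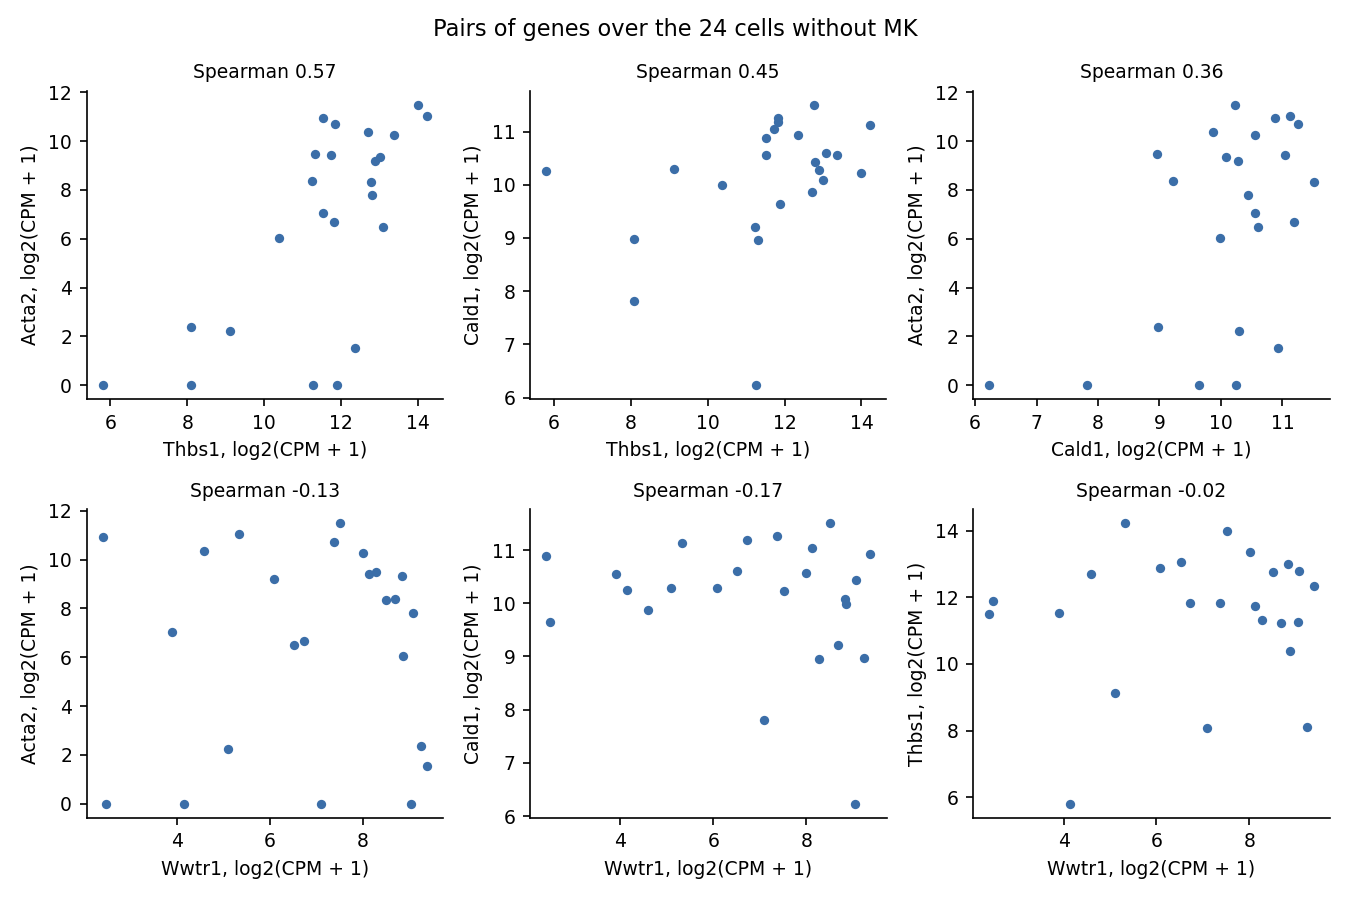
Each panel plots log2(CPM + 1) of 1 gene against another over the 24 without-MK cells, with the Spearman correlation above it. The upper panels pair Acta2, Cald1 and Thbs1 (0.57, 0.45 and 0.36), the lower panels pair Wwtr1 with each of them (−0.13, −0.17 and −0.02).

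Some genes of the actin cytoskeleton correlated with Cald1 or Thbs1 across the without-MK cells. Of 12 other contractile genes read in at least 12 of these cells, 3 reached 0.4 with Cald1, against 2.25% of all genes. They were Actn1, the actin crosslinker alpha-actinin, at 0.75, the tropomyosin gene Tpm4 at 0.55 and the myosin light chain gene Myl6 at 0.46. The cytoplasmic actins Actb and Actg1 stood at 0.72 and 0.43 with Cald1. Actn1 and Actb were also the 2 genes with the highest correlation with Cald1 among all 2623, followed by Ccl7, Cd302 and Psme4 at 0.58, 0.58 and 0.56. Leaving out single cells kept Actn1 between 0.72 and 0.77 and Actb between 0.68 and 0.78, and with median-ratio scaling Actn1 stood at 0.65 and Actg1 at 0.35. The median over the 12 contractile genes was 0.22 with Cald1, against 0.01 over all genes.

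With Thbs1, 6 of 13 contractile genes reached 0.4, against 5.41% of all genes. Besides Cald1 they were Tpm4 (0.56), Vcl, which encodes the adhesion protein vinculin (0.55), the non-muscle myosin heavy chain gene Myh9 (0.54), Actn1 (0.53) and the myosin light chain gene Myl12a (0.40). The median over the 13 was 0.38, against 0.05 over all genes. Of the 15 actin turnover genes, 0 reached 0.4 with Cald1 (median 0.11) and 1 with Thbs1 (median 0.13). With Acta2 2 of them did, Pfn1 (0.45) and Dstn (0.42), and the median was 0.07. Over the 17 cells with at least 10 reads of both genes, Pfn1 stood at −0.0049 and Dstn at 0.25 with Acta2. With Acta2, 2 of 13 contractile genes reached 0.4, against 5.18% of all genes. They were Vcl (0.55) and Myl6 (0.48), and the median was 0.35 against 0.05. Over the 17 cells with at least 10 reads of both genes, Vcl stood at 0.50 and Myl6 at 0.27 with Acta2. With Wwtr1, 1 of 13 contractile genes reached 0.4, against 4.19% of all genes. That gene was Tln1, which encodes talin, at 0.43, and the median was −0.05. The Tln1 value was 0.022 over the 18 cells with at least 10 reads of both genes. Pdlim5, a PDZ-LIM scaffold of actin filaments, was the contractile gene farthest below 0 with Wwtr1, at −0.51, and that value was −0.06 over the 14 cells with at least 10 reads of both.

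Of the 5 other listed Hippo genes read in at least 12 cells, 0 reached 0.4 with Wwtr1, against 4.19% of all genes. For so few genes that count is near the share of all genes. Mob1b was the highest at 0.32, and the kinase genes Lats2 and Stk4 stood at 0.042 and 0.20 with Wwtr1. With Cald1 both kinase genes were below 0, Lats2 at −0.56 and Stk4 at −0.46. The share of all genes that far below 0 was not counted. Leaving out single cells kept the values of Lats2 and Stk4 with Cald1 between −0.71 and −0.51 and between −0.53 and −0.40. Of the 5 listed YAP and TAZ target genes, Thbs1 included, 0 reached 0.4 with Wwtr1, again beside 4.19% of all genes. With Acta2 3 did, Thbs1, Myof (0.47), a membrane repair protein, and Marcks (0.40), an actin-binding kinase substrate, against 5.18% of all genes. Myof stood at −0.093 over the 13 cells with at least 10 reads of both genes, and Marcks at 0.38 with median-ratio scaling. Yap1, the TEAD genes, Ctgf, Cyr61, Srf, Tagln, Cnn1, Myl9, Tpm2, Actg2 and Thbs2 were not analysed here.

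Cfl2 had its own neighbours. Among the actin turnover genes, 1 of 14 reached 0.4 with it, against 3.01% of all genes. That gene was Rock1, a kinase upstream of cofilin, at 0.55, and at 0.52 over the 20 cells with at least 10 reads of both. Its paralog Rock2 stood at −0.07 and the related severing factors Cfl1 and Dstn at 0.02 and −0.01. Genes most like Cfl2 included Dennd5a (0.66), Vmp1 (0.63), Rdh13 (0.61) and Myo9b (0.59). Over cells with at least 10 reads of both genes, Dennd5a stood at −0.21 with Cfl2 (10 cells). In such cells Vmp1 stood at 0.63 (22 cells), Rdh13 at 0.53 (22 cells) and Myo9b at 0.45 (11 cells).

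The genes most like the other members over the 24 cells were named by the same measure. For Acta2 they were Prdx3, Ctr9, Srp72, Mettl9 and Cnot3, from 0.67 to 0.64. For Wwtr1 they were Map2k1, Mtch2, Tspan3, Atp6v1e1 and Wbscr22, from 0.63 to 0.59. For Thbs1 they were Fibp (0.73), Lamb1 (0.67), which encodes a laminin chain, Enc1 (0.65), Snd1 (0.63) and Rfwd3 (0.63). Several of these rest on cells with few reads. Over cells with at least 10 reads of both genes, Prdx3 stood at 0.24 with Acta2 (17 cells) and Ctr9 at 0.083 (9 cells). Srp72 stood at −0.014 (15 cells) and Mettl9 at −0.082 (13 cells) with Acta2. No cell had 10 reads of both Acta2 and Cnot3. Map2k1 stood at −0.57 with Wwtr1 (7 cells), and the other genes named for Wwtr1 between 0.50 and 0.59. Fibp stood at −0.12 with Thbs1 (8 cells), Rfwd3 at −0.26 (6 cells) and Snd1 at 0.52 (13 cells). Enc1, an actin-binding protein, stood at 0.74 with Thbs1 over 23 such cells, and Lamb1 at 0.60 over 17.

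**Figure D3:**
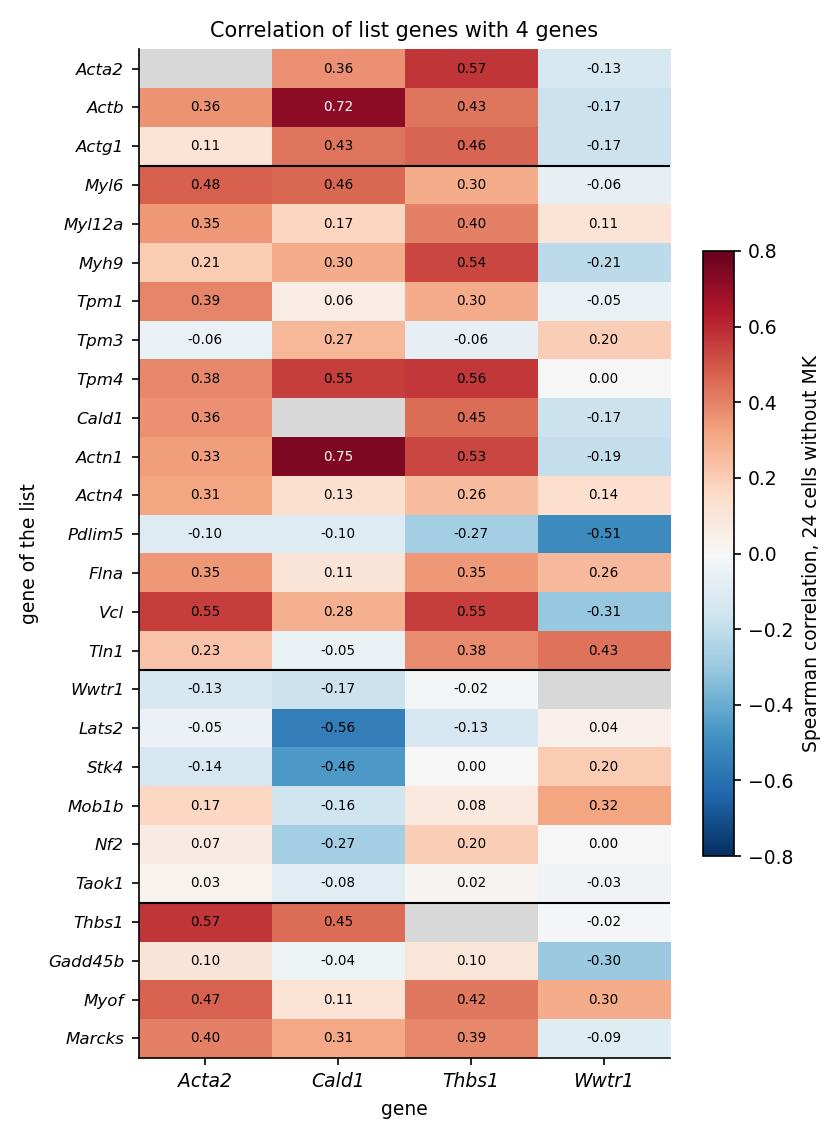
Spearman correlations over the 24 without-MK cells of listed actin, contractile, Hippo and YAP/TAZ target genes (rows, lists separated by lines, a gene of several lists shown once) with Acta2, Cald1, Thbs1 and Wwtr1 (columns). Actn1 at 0.75 and Actb at 0.72 stand out in the Cald1 column, and in the Wwtr1 column the contractile gene with the highest value is Tln1 at 0.43.

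Between the groups, genes of the wider contractile list lay on both sides. Of 14 listed contractile genes, 8 were at least 2-fold lower, the member Cald1 among them, 2 at least 2-fold higher and 4 between. The median log2 ratio of the 14 was −1.48. Over all 3271 genes, 28.3% were lower and 24.4% higher by that measure, with a median of −0.14. Tpm1, a tropomyosin of stress fibres, stood at 60.9 CPM in with-MK cells and 1633 CPM in without-MK cells, a log2 ratio of −4.74. Of the Tpm1 reads of with-MK cells, 58.4% came from cell 19, and without it the log2 ratio was −5.91. Myl12b, a regulatory myosin light chain, went the other way, at 340 CPM in with-MK cells and 16.2 CPM in without-MK cells, a log2 ratio of 4.39 that was 5.02 without without-MK cell 9. Tpm3 was the second gene higher in with-MK cells, with a log2 ratio of 1.57. Of the actins, Actb was higher in with-MK cells at 79434 CPM, against 34394 CPM in without-MK cells, and Actg1 stood at 59.5 CPM in with-MK cells and 77.7 CPM in without-MK cells, a log2 ratio of −0.39 that turned to 0.32 with median-ratio scaling.

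Of 15 genes of cofilin regulation and actin turnover, 5 were at least 2-fold lower, the member Cfl2 among them, 4 higher and 6 between. Over all genes, 28.3% were lower and 24.4% higher. Rhoc, a small GTPase, stood at 5.75 CPM in with-MK cells and 151 CPM in without-MK cells, but 88.9% of the Rhoc reads of with-MK cells came from cell 20. Without that cell its log2 ratio went from −4.71 to −7.80. Rock2 had a log2 ratio of −2.89, or −3.65 without with-MK cell 13. Dstn, which encodes destrin, had a log2 ratio of −1.65, or −2.54 without with-MK cell 19. The actin monomer binder Tmsb4x was higher in with-MK cells, at 5412 CPM, against 595 CPM in without-MK cells.

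Of 7 listed Hippo genes, 2 were lower, 2 higher and 3 between, against 28.3% lower and 24.4% higher over all genes. Wwtr1 and the kinase gene Taok1 (log2 ratio −1.05) were lower, and Stk4 (1.80) and Taok3 (5.29) were higher. Taok1 was no longer 2-fold lower without without-MK cell 7, at −0.96. Of the Taok3 reads of with-MK cells, 60.5% came from cell 9, and the log2 ratio was 4.05 without it, 6.15 without without-MK cell 2 and 7.75 with median-ratio scaling. Lats2, the kinase that inactivates TAZ, stood at 114 CPM in with-MK cells and 177 CPM in without-MK cells. Its reads came from 8 of 20 with-MK cells and 20 of 24 without-MK cells, and without with-MK cell 7 its log2 ratio went from −0.64 to −1.64. Of the 5 YAP and TAZ target genes, Thbs1, Gadd45b (−2.32) and Myof (−1.48) were lower, Marcks was higher (1.22) and Lats2 lay between. Without the with-MK cell that held the largest share of their reads, cell 19 for Gadd45b and cell 3 for Myof, Gadd45b and Myof stood at −3.18 and −2.64.

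Partners of thrombospondin-1 lay on both sides. Cd36, its scavenger receptor, stood at 929 CPM in with-MK cells and 1.93 CPM in without-MK cells, and Cd47, its integrin-associated receptor, at 113 CPM in with-MK cells and 50.7 CPM in without-MK cells. The log2 ratio of Cd47 was 1.16, but 0.84 and so under 2-fold without with-MK cell 4, and 2.07 with median-ratio scaling. Itgb1, the integrin beta chain, was lower in with-MK cells, at 90.7 CPM, against 1174 CPM in without-MK cells. Without with-MK cell 17 its log2 ratio went from −3.69 to −4.33, and scaling by median ratios gave −1.80. Of the 8 listed genes of that list, 3 were lower, Thbs1 among them, 3 higher and 2 between, against 28.3% lower and 24.4% higher over all genes. Of 7 TGF-beta pathway genes, 3 were lower, 1 higher and 3 between. Ltbp1, which holds latent TGF-beta in the matrix, had 3 reads over the with-MK cells, against 2894 over the without-MK cells, which is 1215-fold lower (415 to 5896). The inhibitory helix-loop-helix gene Id3 had a log2 ratio of −2.56, or −3.33 without with-MK cell 4, and the repressor gene Ski one of −1.48, or −2.14 without with-MK cell 7 and −0.04 after scaling by median ratios. Of the 5 listed genes of serum response factor signalling, Acta2, Vcl (−1.84) and Egr1 (−1.05) were lower and Fos (1.90) and Mkl2 (1.40) higher. Of the Vcl reads of with-MK cells, 64.3% came from cell 13, and without it the log2 ratio was −3.25. Egr1 was no longer 2-fold lower without without-MK cell 21, at −0.54. Without-MK cell 11 held the most Fos reads of its group, and without it the log2 ratio was 2.66.

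**Figure D4:**
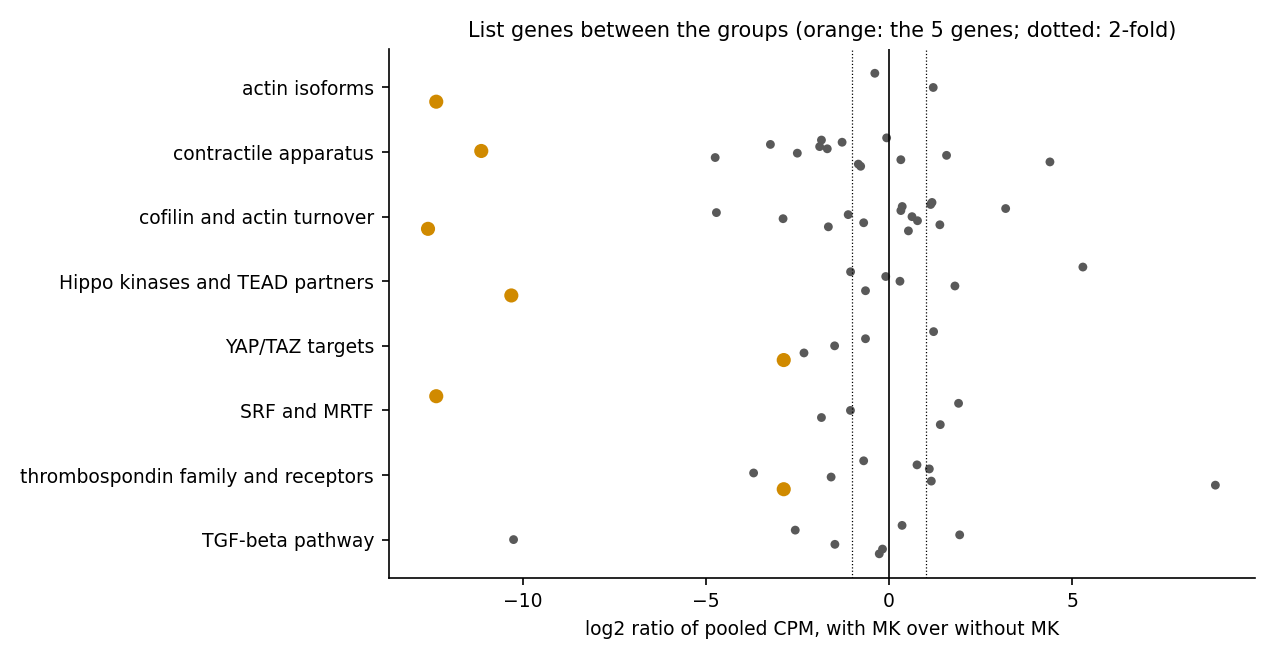
Log2 ratio of pooled CPM, with-MK over without-MK cells, for each listed gene of 8 lists, with the 5 genes as large orange points (Acta2 and Thbs1 appear in several lists) and dotted lines at 2-fold. Acta2, Cald1, Cfl2 and Wwtr1 lie below −10, where the Wwtr1 value is set by a floor of 3 reads, while Thbs1 lies at −2.87.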

How the data were processed

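SMART-Seq cDNA went into Nextera XT libraries that were read as 150 b paired ends, per the labels. The build mm10 and Seurat are named in the submitters' processing notes. For aligner, counter and annotation, nothing is given in the sources used here. What the authors deposited is a signal per gene and cell. Its values have the form of reads × 1e+09, divided by the library reads and by a whole number per gene. That number was taken as the smallest that makes the reads of a gene whole in every cell. It was 1 for Acta2, Cfl2 and Wwtr1, 2 for Cald1 and 3173 for Thbs1. So it is not a transcript length for all genes, the Acta2 transcript having 2035 b. A multiple of it would change the level of a gene in all cells alike. All 99807 values above 0 came out as whole reads (tolerance 0.0001), and the recovery was tested on simulated data. CPM is computed from these reads. Reads carry no molecular identifiers, so intervals cover counting error only and are likely too narrow. No model with cells as replicates was fitted, because each group counts as 1 sample.

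Members and gene lists were chosen with earlier results of these data known. Genes were named by rule: the members, 21 fixed partner genes, the 3 genes with the largest difference in each list, and the 5 genes most correlated with each member, of which 1 is not reported here. Genes singled out besides these, for a correlation or a ratio, were chosen after their values were seen. Correlations are Spearman's, over cells, without p-values. Positions and transcripts are from GENCODE M21 (GRCm38, the same assembly as mm10). Python 3.11.15, numpy 2.4.6, pandas 2.3.3 and scipy 1.17.1 were used.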

Additional observations from a re-analysis of the deposited data

How the results depend on the processing

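No paired analysis was possible because each group counts as 1 sample and no test was made. Alternatives were planned or, for correlations over cells with 10 reads, single cells left out, median-ratio scaling of correlations and counts, and counts without the 2 shallowest with-MK cells, chosen after seeing the data. Under the alternatives, 198 values stayed within the limit set for them and 34 moved, and no ratio of the 5 genes turned its direction; correlations near 0 changed sign under some settings, namely those of Acta2 with Cfl2 and Wwtr1, of Cfl2 with Wwtr1 and of Wwtr1 with Thbs1. Pooled log2 ratios: Thbs1 was −3.18 after removing from each group its top cell, −2.76 thinned to 310000 reads (18 with-MK and 22 without-MK cells), −3.13 with listed reads as the total, −2.67 by median-ratio scaling and −2.81 from deposited means. Cald1 was −10.06 by median-ratio scaling and −10.19 from deposited means, and thinned Wwtr1, set by its floor, −8.80. The median of all genes moved from −0.14 to 0.03 with median-ratio scaling and to −0.40 with listed reads. With a pseudocount of 10, the difference in mean log2 level was −6.65 for Cald1, −4.74 for Cfl2 and −3.82 for Wwtr1, because a larger pseudocount lifts cells at 0. At 10 reads or more, the share of with-MK cells was 0% for Acta2, Cald1 and Cfl2 and 70.0% for Thbs1, and that of without-MK cells 79.2% for Wwtr1. Over cells with 10 reads of both genes the correlations were 0.042 (Acta2 and Cald1), 0.21 (Acta2 and Cfl2), −0.43 (Acta2 and Wwtr1), 0.35 (Acta2 and Thbs1), 0.15 (Cfl2 and Wwtr1) and −0.39 (Wwtr1 and Thbs1); the cause was not tested. At 4-fold, 13.4% of all genes were lower and 14.2% higher. In the lists, with the members counted, 4 contractile genes were lower and 1 higher. Of the turnover genes 3 were lower and 1 higher, and of the Hippo genes 1 was lower and 1 higher. In addition, 1 serum response gene was lower and 1 thrombospondin partner higher. Among actins, YAP and TAZ targets, serum response and TGF-beta genes, 0 were higher. The stricter fold sets these counts. With 1 sample per group, no value has a replicate check.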

Other observations

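The reads of several genes of the gene lists came largely from single with-MK cells. Of 56 listed genes with more than 3 reads in with-MK cells, cell 19 had the most reads of 9, cell 7 of 7 and cell 9 of 6. The same count was not made over all genes, so whether these counts are unusual was not tested. The 9 genes of cell 19 were Tpm1 (58.4% of the group's reads), Tpm4 (30.1%), Actn1 (20.6%), Dstn (49.6%), Gsn (33.3%), Nf2 (70.3%), Gadd45b (48.8%), Mkl2 (24.4%) and Itgav (31.6%). Cell 19 held 7.06% of the group's library reads, with 1103554 reads and 2055 genes read. It had 1 Acta2 read, 2 Cald1 reads and 3 Thbs1 reads. Its macrophage markers summed to 9421 CPM, toward the low end of the with-MK cells (4149 to 64908 CPM, median 28265). Its stromal markers summed to 4.53 CPM (3.88 to 154 CPM over the with-MK cells, median 7.03). Without it, the log2 ratio of Gsn, which encodes the actin-severing protein gelsolin, went from 1.14 to 0.66 and was no longer 2-fold, and that of Nf2, a Hippo pathway regulator, from −0.09 to −1.73. The log2 ratio without it was −2.91 for Tpm4, against −2.50 with it, −1.91 for Actn1, against −1.68, −2.02 for Itgav, against −1.58, and 1.10 for Mkl2, against 1.40.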
